A study of Homo sapiens with 2 samples.

Results

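The AP-1 and EGR immediate early transcription factors were examined in the HN6 cell line, derived from a squamous carcinoma of the human tongue, with and without overexpression of the zinc finger protein ZNF582. The 10 genes were chosen by symbol, as the 4 FOS genes (FOS, FOSB, FOSL1 and FOSL2), the 3 JUN genes (JUN, JUNB and JUND) and the 3 EGR genes EGR1, EGR2 and EGR3, out of 25534 genes listed. That choice was made with earlier results of these data known. RNA sequencing gave 1 library from control cells labelled WT and 1 library from cells with a transfected ZNF582 plasmid, both grown in serum-containing medium. The protocol text on both samples describes the plasmid transfection with polybrene, and only the genotype and treatment labels separate them. An empty vector for the control cells is not mentioned in the labels, nor whether plasmid-bearing cells were a clone or a pool, or how long after transfection RNA was taken. With a single library per group, differences have no replicate check and carry no p-value. Every interval is a 95% interval that covers counting error alone.

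AP-1 is a family of dimers that bind DNA through a basic region and a leucine zipper. JUN proteins pair with each other, with FOS proteins or with ATF proteins, whereas FOS proteins need a partner from another family. EGR proteins bind GC-rich sites through zinc fingers. Most of these genes are transcribed within minutes of a growth factor, serum or stress signal without new protein synthesis, through MAP kinases that act on serum response factor, its ternary complex partners and CREB or ATF proteins, and their RNAs decay quickly. In squamous epithelium and its carcinomas, AP-1 dimers are known regulators of differentiation, invasion and protease genes.

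Regulatory letters near the starts of these genes are shown first, because the genes are known to respond through them. Of the 10 genes, 8 had a RefSeq promoter window (GRCh38.p14, 250 bases before to 50 bases after a start), and FOSL1 and EGR3 did not. EGR2 had 3 starts, so the 8 genes had 10 windows, and its starts lay 100733 to 103534 bases inside the span counted for the gene. The letters TGACGT, the core of the cyclic AMP response element that CREB and ATF proteins bind, were chosen after the sequences were seen and were searched on both strands. They occurred in 1 window each of 6 genes (FOS, FOSB, FOSL2, JUND, EGR1 and EGR2), or 6 of the 10 windows, and in 7.98% of all 35116 windows. The whole element TGACGTCA occurred in JUND alone among the 8 genes and in 1.85% of windows, and it overlaps TGACGT. JUN held the variant TGACATCA, found in 2.61% of windows, through which JUN with ATF2 is known to act on its own promoter. Around these letters, in capitals, the strands of the genes read as follows.
JUN, chr1:58784096-58784125, minus strand: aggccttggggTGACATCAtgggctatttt
FOS, chr14:75278752-75278781, plus strand: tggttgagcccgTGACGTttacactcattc
FOSL2, chr2:28392780-28392809, plus strand: ggagtctggggtTGACGTgagtgaatccac
EGR2, chr10:62816404-62816433, minus strand: atatgggcagcgACGTCAcgggtattgaag
The first base of the capitals lay at -67 in JUN, -64 in FOS, -66 in FOSL2 and -55 in EGR2, where the capitals are the reverse complement of TGACGT, counted from the RefSeq start of the window. For JUN and FOSL2 that start lay 280 and 410 bases inside the span counted for the gene. The JUN letters therefore lay within its single counted exon, and the FOSL2 letters downstream of its counted start.

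Longer stretches upstream of the counted exons are shown for FOSB, one of the genes that stood higher, and for JUND, EGR1 and JUNB as members with smaller differences. Capitals mark TGACGT or its reverse complement, TATAAA and the CArG box, the site of serum response factor.
FOSB, chr19:45467746-45467994, plus strand: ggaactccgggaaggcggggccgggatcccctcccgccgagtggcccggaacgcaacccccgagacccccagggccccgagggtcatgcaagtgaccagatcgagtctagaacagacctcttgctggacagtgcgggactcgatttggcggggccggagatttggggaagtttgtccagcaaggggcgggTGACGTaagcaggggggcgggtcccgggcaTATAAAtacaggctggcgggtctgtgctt
JUND, chr19:18281623-18281872, minus strand: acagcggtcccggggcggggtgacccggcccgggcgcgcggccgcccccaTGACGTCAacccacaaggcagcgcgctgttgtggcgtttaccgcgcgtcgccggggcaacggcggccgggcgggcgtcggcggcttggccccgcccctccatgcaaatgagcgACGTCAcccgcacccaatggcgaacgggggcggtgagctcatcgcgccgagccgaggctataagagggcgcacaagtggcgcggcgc
EGR1, chr5:138465229-138465478, plus strand: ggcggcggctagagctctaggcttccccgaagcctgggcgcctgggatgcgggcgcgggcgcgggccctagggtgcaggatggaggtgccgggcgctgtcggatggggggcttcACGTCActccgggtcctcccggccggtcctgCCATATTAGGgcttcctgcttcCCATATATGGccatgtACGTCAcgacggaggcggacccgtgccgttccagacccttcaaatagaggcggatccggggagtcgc
JUNB, chr19:12791236-12791485, plus strand: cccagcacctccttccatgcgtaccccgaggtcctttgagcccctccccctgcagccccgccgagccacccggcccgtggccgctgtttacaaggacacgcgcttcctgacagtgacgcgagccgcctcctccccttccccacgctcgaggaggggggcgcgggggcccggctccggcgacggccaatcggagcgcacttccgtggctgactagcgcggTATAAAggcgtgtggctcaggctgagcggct
A CArG box was present in the windows of EGR1 (2 copies) and EGR2 among the 8 genes, and in 1.29% of windows. Letters farther than 250 bases before a start were not searched, so a gene without a match may still have the site. TATAAA was present in FOS, FOSB and JUNB and in 11.5% of windows. The letters GCGNGGGCG of the EGR site occurred in EGR1 and EGR2 and in 9.43% of windows. The AP-1 letters TGAGTCA occurred in FOSL2 alone among the 8 genes and in 4.95% of windows. A match describes the letters and does not show binding.

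Each library matched its label for the plasmid gene. ZNF582 had 14 control and 277387 ZNF582 counts. The libraries held 14765244 and 17792172 counts, and the 16669 genes that reached 20 counts when the libraries were added were examined. Of 10 squamous epithelial markers 9 were above 1 FPKM in both libraries, and the basal keratin KRT14 stood below it in both. Their summed level was 604 FPKM in the control and 895 in the ZNF582 library. Single markers went both ways, from a log2 fold of -0.54 for CDH1 to 1.96 for KRT17, and LAMB3 alone went from 158 to 384 FPKM. Of 5 leukocyte markers 4 were not listed, and CD14 reached 0.175 FPKM at most. The 3 listed endothelial markers of 4 summed to 0.343 and 0.250 FPKM, and the 3 listed fibroblast markers of 6 to 2.22 and 1.29 FPKM. Mitochondrial transcripts took 0.713% of counts in the control and 0.906% in the ZNF582 library, and their part in the results below was not tested.

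All 10 AP-1 and EGR genes had a higher scaled count in the ZNF582 library, where 49.5% of the genes examined did. Counts were scaled by library total and TMM factors, and this direction held for all 10 without the factors, without the ZNF582 gene and with DESeq2 size factors. A call needed a fold of 2 or more, with a counting interval that did not hold 1. Among the 9 members that reached 20 counts, FOSB and JUN made 2 calls in the higher direction, and 0 members were lower. Among all genes examined the call rate was 9.27%, made of 4.25% higher (709 genes) and 5.02% lower (836 genes). Without TMM factors that split was 565 higher and 1097 lower. At a 1.5-fold threshold JUND and EGR1 joined, giving 4 members, beside 9.9% of genes higher and 10.9% lower. EGR1 fell below that threshold without TMM factors and without the ZNF582 gene, at log2 folds of 0.53 and 0.55. FOSB and JUN were also the 2 members marked up in the authors' deposited table, with 0 marked down, beside 2.05% of genes marked up and 2.71% down. The 9 members had a median log2 fold of 0.64, beside -0.007 over all genes examined, whose quartiles lay at -0.33 and 0.31. Because the members were chosen with earlier results of these data known, these comparisons with all genes are description only. The interval lay above 1 for 9 of the 10 genes and held 1 for EGR2. In a culture, more transcript per cell and more cells with the transcript cannot be told apart.

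**Figure D1:**
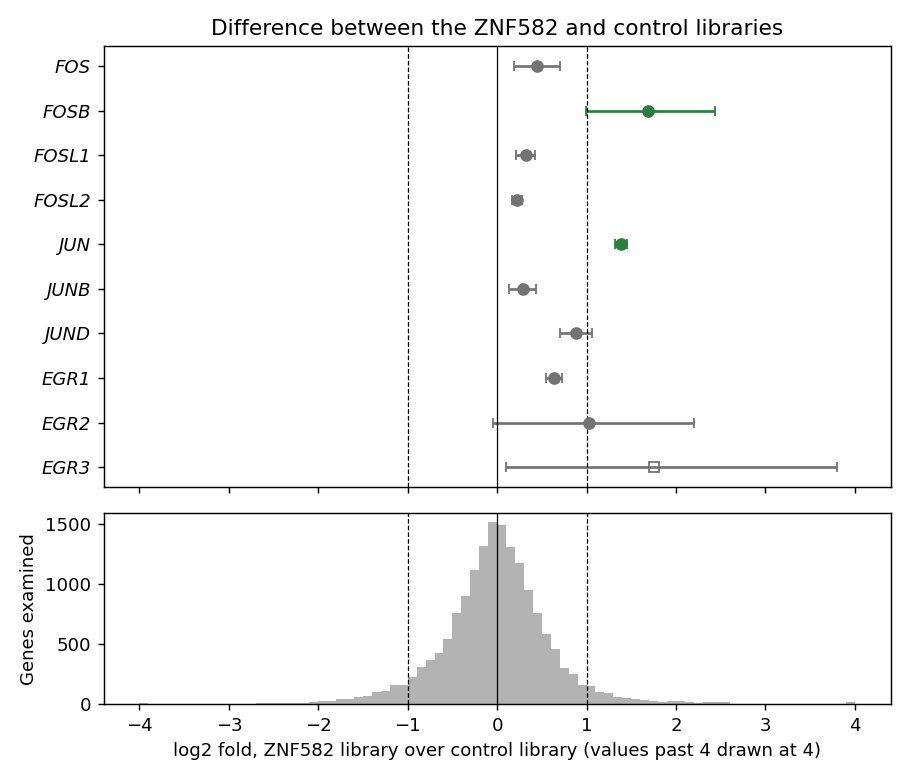
Upper panel, log2 fold of each AP-1 and EGR gene (ZNF582 library over control library), with bars for the 95% counting interval. Green points are the 2 genes called higher, grey points were not called, and the open square is EGR3, which had 19 counts. Lower panel, number of genes at each log2 fold among the 16669 examined. Values past 4 are drawn at 4, solid and dashed lines mark no change and 2-fold, and all 10 points lie to the right of no change.

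JUN had the largest fold of the abundant members, with JUND next and JUNB near the FOS genes. JUN, the gene of c-Jun and the strongest transactivator of its family, lies on the minus strand of chromosome 1 (58780788 to 58784327, GRCh38) as a single exon. It had 2273 control and 6604 ZNF582 counts, or 43.5 FPKM (41.7 to 45.3) against 104.8 FPKM (102.3 to 107.4). The counting intervals were far apart, and JUN was 2.61-fold higher (2.49 to 2.74), above 97.6% of the genes examined. FPKM carries no TMM factor, so the ratio of the deposited values was smaller, at 2.41.

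JUND, which encodes a more constitutively made subunit often linked to restrained growth, is a gene without introns on chromosome 19 (18279760 to 18281622, minus strand). It had 365 control and 749 ZNF582 counts, or 10.5 FPKM (9.41 to 11.6) against 17.8 FPKM (16.6 to 19.1). The intervals of the levels did not overlap, and the fold was 1.84 (1.62 to 2.09), short of the 2-fold rule. JUNB, a weaker activator that can oppose c-Jun, lies on chromosome 19 (12791496 to 12793315, plus strand), also in a single exon. Its 623 control and 846 ZNF582 counts gave 23.2 FPKM (21.4 to 25.1) against 26.1 FPKM (24.4 to 27.9). Those level intervals overlapped, and the scaled fold was 1.22 (1.10 to 1.35). JUNB shares 259 exonic bases with HOOK2 on the other strand, which makes its counts uncertain. HOOK2 stood at 0.979-fold (0.831 to 1.15).

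A ratio of 2 genes inside a library does not depend on the scaling between libraries. The count ratio of JUN to JUNB was 3.65 in the control and 7.81 in the ZNF582 library, a change of 2.14-fold (1.91 to 2.40). The ratio of JUN to JUND moved less, from 6.23 to 8.82, a change of 1.42-fold (1.23 to 1.62). The ratio of JUND to JUNB was 1.51-fold higher in the ZNF582 library (1.28 to 1.78). By these ratios the JUN genes were ordered JUN, JUND and JUNB in the size of their difference, each apart from the next by more than counting error.

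Among the FOS genes the scarcest had the largest fold and the abundant ones small folds. FOSB, whose full-length and truncated proteins are known from induced neurons and bone, lies on chromosome 19 (45467995 to 45475179, plus strand). It had 22 control and 79 ZNF582 counts, or 0.0903 FPKM (0.0566 to 0.137) against 0.269 FPKM (0.213 to 0.335). FOSB was 3.22-fold higher (1.99 to 5.43), above 98.4% of the genes examined, but stayed below 1 FPKM in both libraries. The ratio of its deposited FPKM values was 2.98. Its call was lost once a pseudocount was added to the FPKM, and both pseudocounts exceeded its control level. Its log2 fold was then 0.96 with a pseudocount of 0.1 and 0.22 with a pseudocount of 1, against 1.69 from the counts. The table gives 1 value per gene, so the forms of FOSB were not told apart.

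FOS, the gene of c-Fos and the classic serum-induced member, lies on chromosome 14 (75278774 to 75282230, plus strand). It had 209 control and 318 ZNF582 counts, or 1.56 FPKM (1.35 to 1.78) against 1.96 FPKM (1.75 to 2.19). The level intervals overlapped slightly, and the fold was 1.37 (1.14 to 1.63). FOSL1, which encodes Fra-1, a subunit known to be high in invasive carcinoma cells, lies on chromosome 11 (65892049 to 65900573, minus strand). With 1257 and 1751 counts, its level was 16.5 FPKM (15.6 to 17.5) in the control and 19.1 FPKM (18.2 to 20.02) in the ZNF582 library. FOSL1 stood at 1.25-fold (1.16 to 1.34).

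FOSL2, which encodes Fra-2, lies on chromosome 2 (28392448 to 28417312, plus strand) and had the most counts of any member in the control library. It had 4988 control and 6495 ZNF582 counts, or 26.3 FPKM (25.6 to 27.0) against 28.4 FPKM (27.7 to 29.1). The level intervals were narrow and separate, yet the fold of 1.17 (1.13 to 1.21) was the smallest of the 10 genes. Against FOSL2 inside each library, FOSB was 2.76-fold higher in the ZNF582 library (1.70 to 4.65) and JUN 2.23-fold higher (2.10 to 2.37). For FOSL1 against FOSL2 the change was 1.07-fold (0.985 to 1.16), and for FOS against FOSL2 1.17-fold (0.974 to 1.40), so neither pair separated beyond counting error.

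The EGR genes were carried by EGR1. This gene, which encodes the widely induced factor also called Zif268, lies on chromosome 5 (138465490 to 138469315, plus strand). It had 1669 control and 2897 ZNF582 counts, or 36.0 FPKM (34.3 to 37.8) against 51.9 FPKM (50.01 to 53.8). The level intervals did not overlap, and EGR1 stood at 1.56-fold (1.47 to 1.66), above 89.2% of the genes examined and below the 2-fold rule. EGR2, known for its part in Schwann cells and hindbrain, and EGR3, known in muscle spindles and lymphocytes, had few counts. EGR2, on chromosome 10 (62811996 to 62919900, minus strand), had 11 control and 25 ZNF582 counts. That gave 0.110 FPKM (0.0547 to 0.196) against 0.207 FPKM (0.134 to 0.305), with a fold of 2.04 (0.968 to 4.59), and the level intervals overlapped.

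EGR3, on chromosome 8 (22687659 to 22693302, minus strand), had 4 control and 15 ZNF582 counts. With 19 counts in all it fell 1 short of the minimum of 20 and was not examined, although its fold of 3.36 had an interval of 1.07 to 13.9. It shares 164 exonic bases with AC055854.1 on the other strand, a noncoding gene with 5 control and 4 ZNF582 counts. EGR1 held 99.6% of the EGR FPKM in the control and 99.4% in the ZNF582 library.

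Levels of different genes depend on the length used. For 7832 of 9132 genes with more than 200 control counts (85.8%), the deposited FPKM had been divided by the summed length of all distinct annotated exons, within 0.5%, so that exons shared by overlapping transcripts entered more than once. For FOS this length was 9099 bases against 3238 bases of exon once overlaps are merged, and for FOSL1 5150 against 1887. For FOSL2 it was 12847 against 7157, and for FOSB 16506 against 5553. JUN, JUNB and EGR1, with 1 annotated transcript each, were not affected, and JUND was affected less than the FOS genes (2363 against 1863). For EGR2 the length behind the FPKM, 6796 bases, equalled neither. The fold of a gene between libraries does not depend on its length. Levels are given below both as deposited FPKM and as counts per kilobase of merged exon at equal library totals (the merged scale), which was added after seeing the data.

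**Figure D2:**
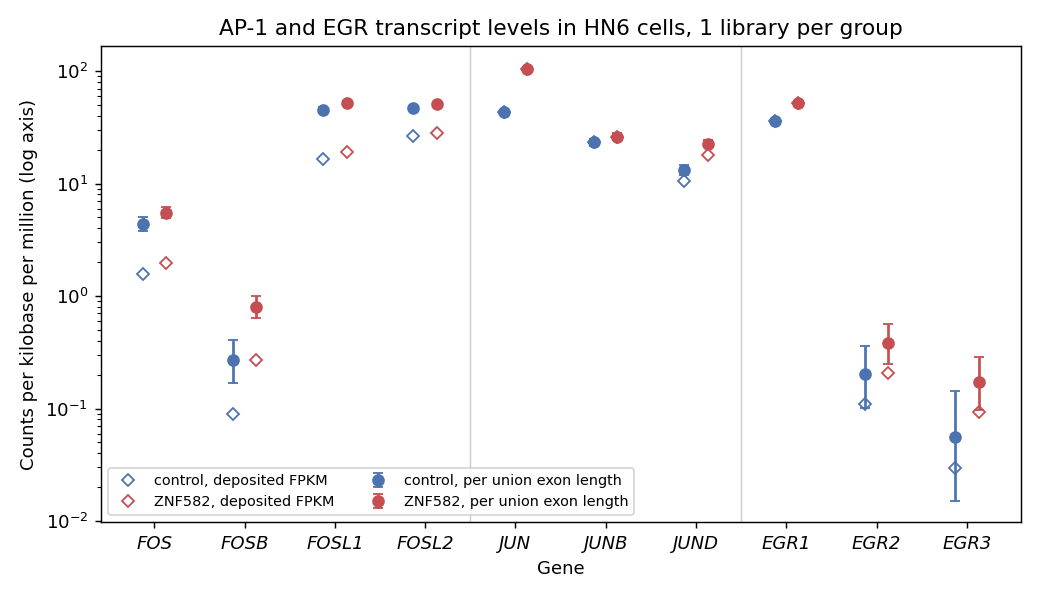
Level of each AP-1 and EGR gene on a log axis, in counts per kilobase scaled to library total, in the control library (blue) and the ZNF582 library (red). Filled circles use merged (union) exon length, with bars for the 95% Poisson counting interval, and open diamonds are the deposited FPKM. FOS, FOSB, FOSL1 and FOSL2 lie higher on the merged scale, while JUN, JUNB and EGR1 lie at the same height on both.

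In the control library JUN, FOSL2 and FOSL1 stood close together on the merged scale, while JUN led by deposited FPKM. Per kilobase of merged exon, FOSL2 stood at 47.2 (45.9 to 48.5), FOSL1 at 45.1 (42.7 to 47.7) and JUN at 43.5 (41.7 to 45.3). The intervals of FOSL2 and FOSL1 overlapped, as did those of FOSL1 and JUN, while FOSL2 and JUN were only just apart. JUNB followed at 23.2 (21.4 to 25.1), JUND at 13.3 (11.9 to 14.7), FOS at 4.37 (3.80 to 5.01) and FOSB at 0.268 (0.168 to 0.406). On the deposited FPKM scale the order was JUN, FOSL2, JUNB, FOSL1, JUND, FOS and FOSB. There JUN stood at 43.5 FPKM, FOSL2 at 26.3, JUNB at 23.2 and FOSL1 at 16.5.

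In the ZNF582 library JUN led on both scales. Per kilobase of merged exon, JUN stood at 104.9 (102.3 to 107.4), ahead of FOSL1 at 52.2 (49.7 to 54.7) and FOSL2 at 51.0 (49.8 to 52.3), whose intervals overlapped. JUNB at 26.1 (24.4 to 27.9) and JUND at 22.6 (21.0 to 24.3) came next and were just apart. FOS stood at 5.52 (4.93 to 6.16) and FOSB at 0.800 (0.633 to 0.997). On the deposited FPKM scale the order was JUN, FOSL2, JUNB, FOSL1, JUND, FOS and FOSB, as in the control library, although the intervals of FOSL2 and JUNB overlapped there, as did those of FOSL1 and JUND.

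Of the summed level of the 7 AP-1 genes on the merged scale, JUN made up 24.6% in the control and 39.9% in the ZNF582 library. FOSL2 went from 26.7% to 19.4% and FOSL1 from 25.5% to 19.8%, with no fall in their own levels. By deposited FPKM the share of JUN was 35.8% in the control and 52.8% in the ZNF582 library. Within the JUN genes alone, JUN held 54.4% in the control and 68.3% in the ZNF582 library on the merged scale, and JUND 16.6% and 14.7%. Within the FOS genes, FOSL1 and FOSL2 together left FOS 4.51% and FOSB 0.277% in the control library and 5.04% and 0.730% in the ZNF582 library. The summed JUN level divided by the summed FOS level was 0.824 in the control and 1.40 in the ZNF582 library on the merged scale, and 1.73 and 2.99 by deposited FPKM. Whether JUN or FOS transcripts were in excess in control cells therefore turned on the length used, and the higher ratio in the ZNF582 library did not.

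**Figure D3:**
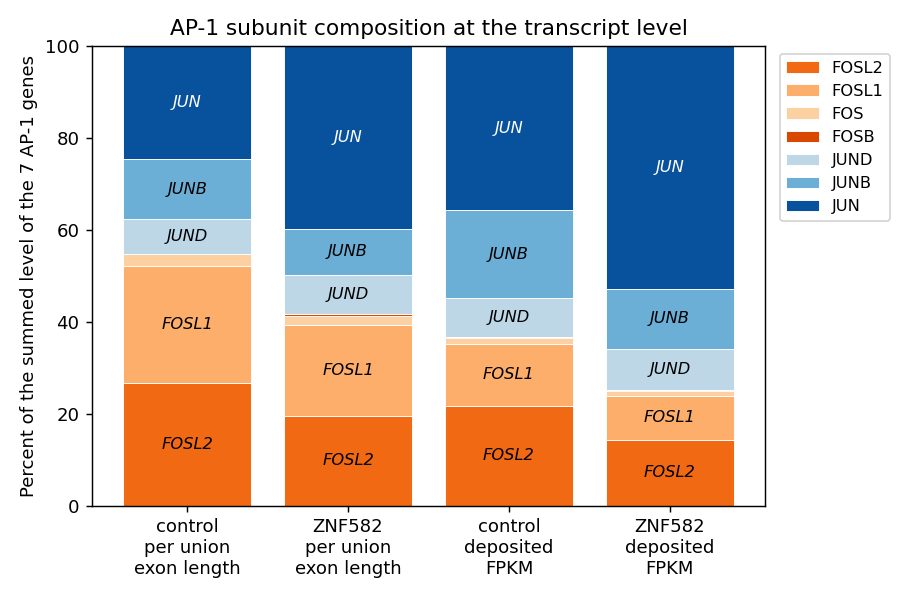
Percent of the summed level of the 7 AP-1 genes taken by each gene, in the control and ZNF582 libraries, on the merged (union) exon scale (left pair of bars) and by deposited FPKM (right pair). Blue shades are JUN genes and orange shades FOS genes. On the merged scale JUN grows from 24.6% to 39.9%, and FOS and FOSB are thin bands in every bar.

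Of the genes that overlap a member or start within 5 kb of it, none with at least 20 counts was called, beside 9.27% of all genes examined. These genes are too few for the absence of calls to be read as a result. No listed gene started within 5 kb of JUN. Near FOSB, the DNA repair gene ERCC1 stood at 0.854-fold (0.780 to 0.935). Near FOSL1, CCDC85B stood at 0.759-fold (0.676 to 0.852) and FIBP at 1.07-fold (0.975 to 1.18). Beside FOSL2, the sense intronic transcript AC104695.3 stood at 1.12-fold (0.707 to 1.79), and the antisense gene FLJ31356 had 4 control and 15 ZNF582 counts. AC018761.2 near JUNB and RPL7P19 near EGR1 had fewer than 20 counts in all.

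No gene of the list upstream of the members passed the 2-fold rule, which leaves smaller differences uncalled. Of 22 MAP kinases, their kinases and the factors they act on, 0 were called higher and 0 lower, beside 4.25% and 5.02% of all genes examined. Their median log2 fold was -0.07, with 8 above 0 and 14 below. The list is too short for the absence of calls to be read as a result. SRF, which binds the CArG box, had 829 control and 882 ZNF582 counts, at 0.955-fold (0.867 to 1.05). Of 8 genes for turnover or cofactors of JUN proteins, also too few for such a reading, 0 were called, with a median of -0.10. HDAC3, a histone deacetylase of corepressor complexes, came nearest, at 1138 against 651 counts or 1.95-fold lower (1.77 to 2.15). FBXW7, a substrate receptor for degradation of c-Jun, was at 1.34-fold (1.25 to 1.43). The ligase genes ITCH, COP1 and its partner DET1 stood at 1.15-fold, 0.887-fold and 0.875-fold. COPS5 stood at 1.02-fold, and MEN1, whose product binds JunD, at 0.937-fold. NAB1 and NAB2, corepressors of EGR proteins, stood at 0.852-fold (0.791 to 0.919) and 0.658-fold (0.534 to 0.809), while EGR4 and WT1 were not listed. NAB1, NAB2, DET1 and COPS5 had exonic overlap with another listed gene.

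Other bZIP genes, whose products can pair with JUN or FOS proteins, lay mostly above 0, with calls in both directions. Of 13 listed, 10 were examined, of which 8 lay above 0 and 2 below, with a median log2 fold of 0.41. Of the 10, 2 were called higher and 1 lower, beside 4.25% and 5.02% of all genes examined. ATF3, a stress-induced partner of JUN proteins, had 255 control and 1009 ZNF582 counts, or 3.55-fold higher (3.09 to 4.09). CREB5, a relative of ATF2, was 2.06-fold higher (1.82 to 2.34), with 351 against 807 counts. JDP2, which represses AP-1 sites as a partner of JUN, was 2.61-fold lower (1.96 to 3.51), at 164 against 70 counts, and shares exonic bases with AF111167.2.

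Immediate early genes outside the AP-1 and EGR families included several of the larger differences. Of 39 examined, 8 (20.5%) were called higher and 0 lower, where 4.25% of all genes examined were higher. This list, like the others here, was chosen with earlier results of these data known, so the 2 shares do not show enrichment. Of the list 25 lay above 0, with a median log2 fold of 0.50, which was 0.33 among genes with at least 100 counts and 0.16 with FPKM and a pseudocount of 1. DUSP1, a phosphatase that switches off MAP kinases, had 420 control and 3387 ZNF582 counts, or 7.24-fold higher (6.54 to 8.03). PPP1R15A, an eIF2-alpha phosphatase subunit, was 5.31-fold higher (4.89 to 5.79), and GEM, a small GTP-binding protein gene, 4.13-fold higher (3.54 to 4.85). KLF10, a zinc finger factor induced by TGF-beta, was 2.64-fold higher (2.51 to 2.78). ZFP36, which directs decay of AU-rich mRNAs, was 2.48-fold higher (1.95 to 3.18). GADD45B at 2.07-fold and ARC, with 5 against 24 counts, were also among the 8 and are named after their values were seen. Of the 39, 14 lay below 0.

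Among 11 genes known to report sustained ERK signalling, 0 were called higher and 1 lower, close to the 4.25% and 5.02% of all genes examined, with a median log2 fold of -0.26. Of the 11, 4 lay above 0 and 7 below, and ERK activity itself was not measured. DUSP6, an ERK phosphatase gene, had 1222 control and 508 ZNF582 counts, or 2.68-fold lower (2.42 to 2.98). It has exonic overlap with AC024909.1. Without genes that have such overlap, the median of the list was 0.0046.

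Known AP-1 targets went both ways. Of 18 examined, 2 were called higher and 0 lower, beside 4.25% and 5.02% of all genes examined. Their median log2 fold was 0.04, and it turned to -0.08 without TMM factors and -0.05 without the ZNF582 gene. It was -0.07 with FPKM and a pseudocount of 1 or 0.1. Over all genes examined the median also moved, from -0.007 to -0.12 without TMM factors and -0.097 without the ZNF582 gene. With FPKM and pseudocounts of 1 and 0.1 the median of all genes was -0.068 and -0.11. The cytokine gene IL6 had 152 control and 558 ZNF582 counts, or 3.29-fold higher (2.75 to 3.97), with exonic overlap with STEAP1B and IL6-AS1. SPP1, which encodes osteopontin, was 3.06-fold higher (1.97 to 4.89), at 27 against 92 counts. The other 16 were not called, and 8 of the 18 lay below 0. Of 9 EGR1 targets 0 were called, and the list is too short for that absence to be read as a result. Of these, 4 lay above 0 and 5 below. Their median was -0.18, or 0.0035 without genes that have exonic overlap.

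**Figure D4:**
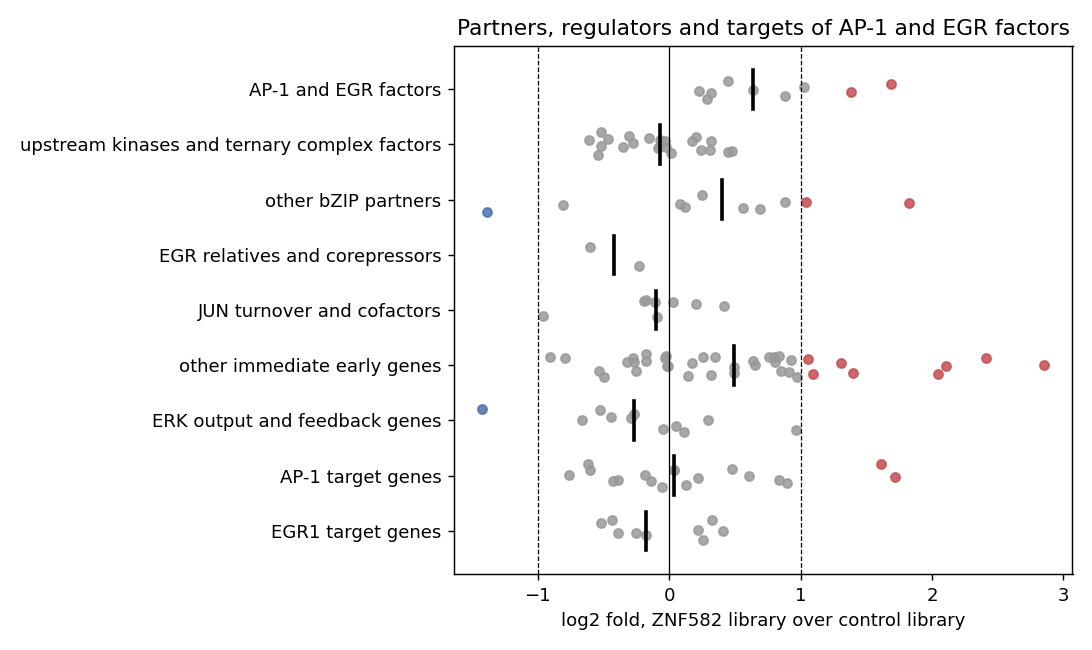
log2 fold (ZNF582 library over control library) of each examined gene in the AP-1 and EGR set and in 8 lists of related genes, 1 point per gene, spread vertically for legibility. Red points were called higher, blue points lower and grey points neither; black bars are medians and dashed lines mark 2-fold. The immediate early list reaches farthest right, with DUSP1 at 2.86 (log2), and the upstream list lies within 2-fold on both sides.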

How the data were processed

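RNA of HN6 cells was sequenced in 1 control and 1 ZNF582 library. Per the submitters' processing notes, HISAT2 2.0.4, StringTie 1.3.0 and GRCh38 were used. The sources used here do not give the counting program, the annotation release or the strand setting. The deposited table holds, per the file headers, counts, FPKM values, p-values and q-values by the authors. The authors' counts are whole numbers, treated here as estimated counts because no counting program is named. No p-value or q-value of the authors is printed. 1 record broken over 2 lines was rejoined.

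Library totals were multiplied by TMM factors of 1.04 (control) and 0.962 (ZNF582), computed with edgeR 4.0.16 in R 4.3.3. The fold carries an exact 95% Clopper-Pearson interval given the sum of both counts, and levels an exact Poisson interval. Reads without molecular identifiers are not independent molecules. No p-value was computed. Merged exons, exonic overlap and neighbours within 5 kb came from GENCODE 29. DESeq2 1.42.0 size factors, unscaled totals, FPKM and other thresholds were tried as alternatives. Python 3.11.15 and scipy 1.17.1 were used.

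The 10 genes and the lists were chosen with earlier results of these data known. Beyond the 10 genes, ZNF582 and SRF, named genes were those overlapping or starting within 5 kb of a member, all of the EGR corepressor and JUN cofactor lists, and up to 6 called genes with at least 100 counts from each other list. ARC and GADD45B are named outside this rule. A pair of genes that the rule names is not reported here. Genes of like pattern are not named, since 2 libraries give 1 ratio per gene.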

Additional observations from a re-analysis of the deposited data

How the results depend on the processing

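No paired analysis was possible because the labels carry no replicate numbers and each group is 1 library, and for the same reason no replicate could be left out. The 2 members called higher fell to 1 (JUN) with FPKM and a pseudocount of 1 or of 0.1, where 0.918% and 2.89% of all genes were higher, against 4.25%. They came to 4 at 1.5-fold with TMM factors (9.9% of all genes) and 3 with no count minimum (3.84%). The median log2 fold of the members was 0.21 with FPKM and a pseudocount of 1, 0.76 with no count minimum and 0.76 without genes with exonic overlap. The median of the other bZIP genes was 0.29 without TMM factors, 0.26 with FPKM and a pseudocount of 1, and 0.29 with 0.1. The median of the ERK output genes was -0.38 without TMM factors, -0.35 without the ZNF582 gene, -0.36 and -0.37 with FPKM and pseudocounts of 1 and 0.1, and 0.0046 without overlapping genes, where the immediate early list stood at 0.78 (0.16 with FPKM and a pseudocount of 1, 0.33 at 100 counts or more), the EGR1 targets at 0.0035, and the EGR corepressor list had no gene left. Over all genes the median moved from -0.007 to -0.12 without TMM factors. As a share of FOS family counts, not per length, FOSL1 took 19.4% and FOSL2 77.0% in the control library, and 20.3% and 75.1% in the ZNF582 library. On the merged scale these were 46.5% and 48.7%, then 47.6% and 46.6%. For JUN within its family the values were 69.7% and 80.5% by counts, and 54.4% and 68.3% on the merged scale. The EGR1 target median was -0.29 without TMM factors. Where only the scaling changes, as without TMM factors or the ZNF582 gene, every log2 fold moves by the same amount. The shares by counts and on the merged scale differ only through gene length. The cause of the other shifts was not tested. FOSB, EGR2 and EGR3, at 101 counts or fewer in all, are limited most by depth.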
